A study of Rattus norvegicus with 21 samples.

Results

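The opioid peptide precursor genes Penk, Pdyn and Pnoc and the opioid receptor genes Oprm1, Oprk1, Oprd1 and Oprl1 were followed in the rat dentate gyrus, the hippocampal subfield that holds the granule neurons. The genes were taken by symbol, and each of the 7 had exactly 1 probe set with a single gene symbol on the array, which passed the filter on low signal, so all 7 were among the 11940 genes tested. The set was chosen by earlier results of these data: Penk and Pdyn were selected on their log2 levels, already seen to be low in agomelatine-treated animals, and tianeptine is an agonist of the mu receptor. Comparisons of agomelatine with any other group are therefore given as a description, with no test, for these 7 genes. The other comparisons were tested.

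All 18 animals were male wild-type Wistar rats, 2 months old, 3 in each of 6 groups. The control group was neither stressed nor given a drug. The stress group was kept under uCMS, a schedule of unpredictable mild stressors, for 6 weeks without a drug. The other groups had the same 6 weeks and received 1 antidepressant by daily intraperitoneal injection in the last 2 weeks: fluoxetine at 10 mg/kg in water, imipramine or tianeptine at 10 mg/kg in 0.9% saline, or agomelatine at 40 mg/kg in 0.5% hydroxyethylcellulose. Dose and vehicle thus differed between agomelatine and the other drugs, and the protocols in the labels describe injections for the drug groups alone. Fluoxetine blocks serotonin reuptake, imipramine is a tricyclic that blocks reuptake of noradrenaline and serotonin, and agomelatine activates melatonin receptors and blocks the 5-HT2C receptor. The 3 control animals were each run on a repeat array as well, and their 2 arrays were averaged.

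Opioid peptides are cut from large precursor proteins by prohormone convertases and carboxypeptidase E and are released from dense-core vesicles. Penk yields the enkephalins, which act mainly on the delta and mu receptors, Pdyn the dynorphins, which prefer the kappa receptor, and Pnoc nociceptin, the ligand of the nociceptin receptor. The receptors couple to inhibitory Gi/o proteins, which lower cyclic AMP, open inwardly rectifying potassium channels and reduce transmitter release. In the dentate gyrus, granule neurons make dynorphin and carry it along their mossy fibres to CA3, enkephalin is found in granule neurons and perforant path fibres, and mu and delta receptors lie largely on GABAergic interneurons.

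Levels are log2 values from an array, so a difference of 1 is a factor of 2, and the level of 1 gene cannot be set against that of another. In such a bulk sample, fewer cells of a type and less RNA per cell cannot be told apart. The labels call the animals of a group biological replicates. Levels of a group are means ± SD over 3 animals, and differences carry the standard error (SE) of a linear model (limma) with 1 mean per group. A gene passed where its Benjamini-Hochberg adjusted p, over all tested genes, was under 0.05. The median SD between animals over all genes was 0.118 in the agomelatine group and 0.0648 to 0.0848 in the other groups. Array medians ran from 7.99 to 8.10. Of 12 listed granule neuron markers 6 were measured, and Prox1, a transcription factor of granule neurons, had a mean of 11.50 with stress in an array range of 3.57 to 14.4.

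Pdyn is shown by its promoter, since it is the only gene of the pair low with agomelatine for which the RefSeq promoter table used here had an entry. The window holds the 250 bases before the annotated start of transcription, on the minus strand at chr3:137366504-137366753 of GRCr8. The capitals mark letters that match a CCAAT box, read here as ATTGG from the opposite strand, and a TATA box. These matches begin at -87 and -13 from the annotated start, and their use was not tested.
Pdyn promoter: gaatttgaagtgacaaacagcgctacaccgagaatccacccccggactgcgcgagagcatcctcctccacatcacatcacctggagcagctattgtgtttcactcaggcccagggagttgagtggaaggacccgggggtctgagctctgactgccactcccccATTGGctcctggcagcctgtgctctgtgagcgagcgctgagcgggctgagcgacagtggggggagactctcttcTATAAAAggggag
Its GC content was 59.2%. Motifs were searched on both strands, and the shares that follow are of all 33469 rat promoter windows of the same length. TATAAAA was present in 5.38% of windows and CCAAT in 34.0%. The cyclic AMP response element TGACGTCA (1.59% of windows), its inner letters CGTCA (18.2%) and the AP-1 site TGANTCA (6.34%) had no match in the Pdyn window, while the E-box CANNTG (65.5%) had 1 match. A match or its absence concerns these letters in this window and says nothing of binding. The table also held 2 windows of Oprm1, with no match to any of these motifs, and 1 of Oprd1, with 1 E-box.

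Penk and Pdyn had their lowest levels in the agomelatine animals. Penk was 9.71, 10.21 and 9.85 in the 3 agomelatine animals, against 10.81, 10.78 and 10.56 in the stressed animals. Its control animals were at 10.59, 10.48 and 10.45. The 3 agomelatine animals thus lay below all 15 others, whose lowest Penk level was 10.38 in a tianeptine animal. Pdyn was 9.57, 9.72 and 9.35 with agomelatine, 10.50, 10.27 and 9.98 with stress alone, and 10.22, 10.31 and 10.02 in controls. Here too the agomelatine animals did not overlap with any of the 15 others, whose lowest value was that 9.98 of a stressed animal. Of all tested genes, 526 (4.41%) had the agomelatine animals below all others in this way, and 422 (3.53%) had them above all others, which was the case for none of the 7 opioid genes.

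**Figure D1:**
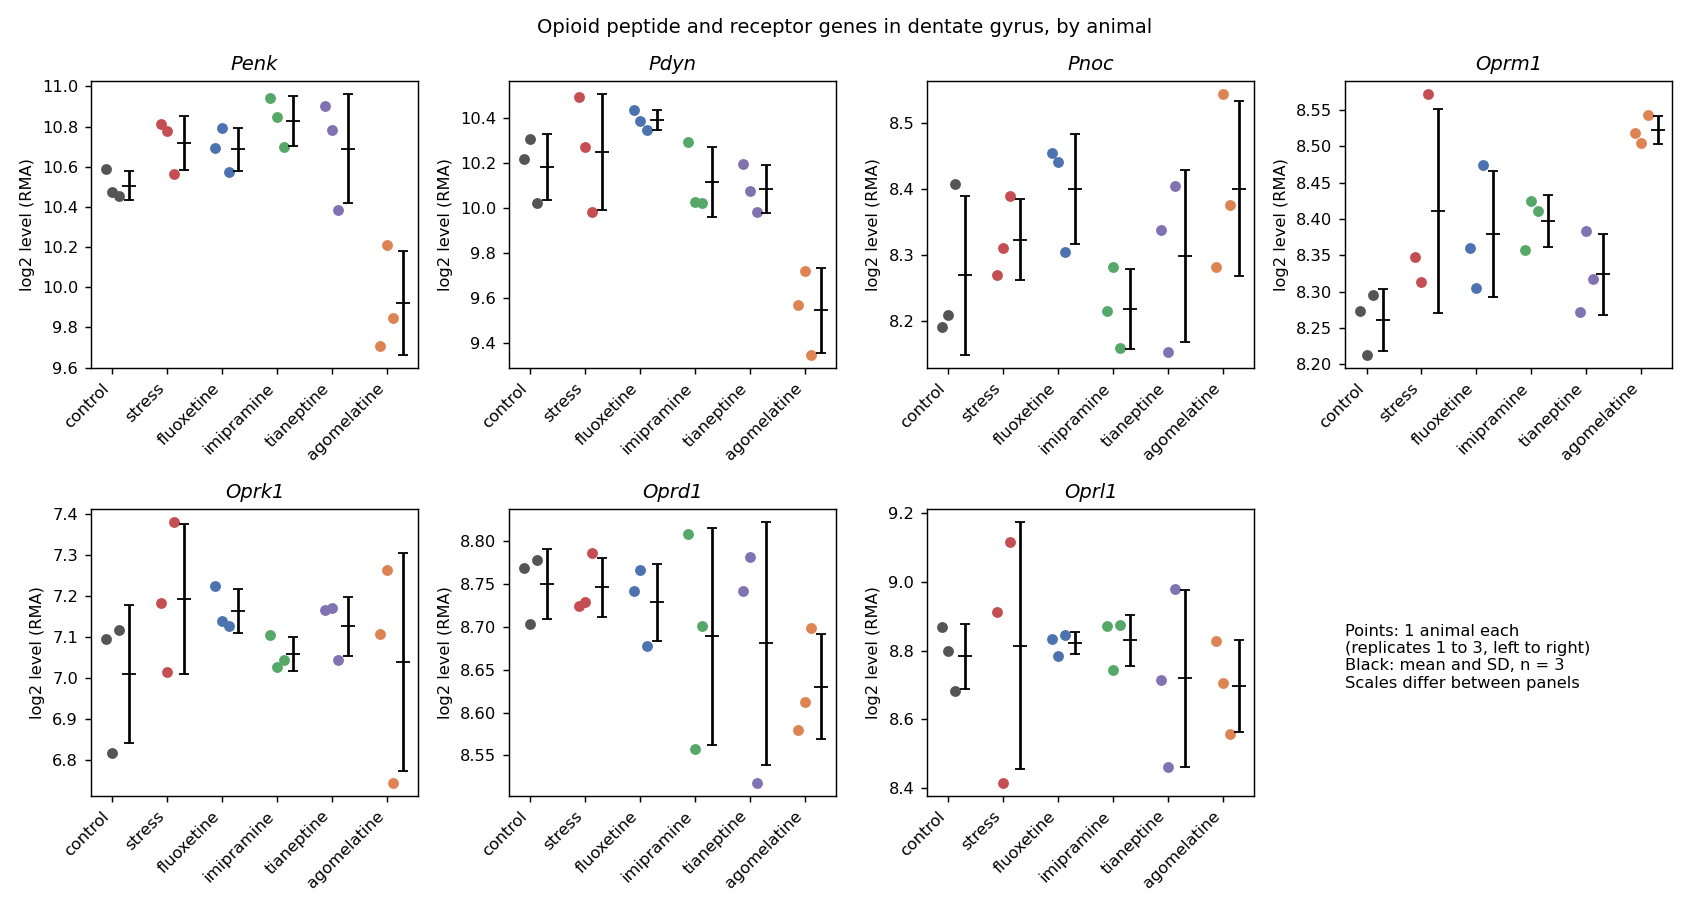
Log2 level of each of the 7 opioid genes (vertical axis, 1 panel per gene with its own range) in each of the 18 animals by group (horizontal axis). Each point is 1 animal, with the 2 arrays of a control animal averaged. Black marks show the mean and SD of a group of 3. In the Penk and Pdyn panels the agomelatine points lie at 9.71 to 10.21 and at 9.35 to 9.72, below every other point, while the groups of the other 5 genes mostly overlap.

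The differences of agomelatine from stress were -0.80 ± 0.12 (SE) for Penk and -0.70 ± 0.12 for Pdyn, so that on the linear scale Penk decreased by 42.4% and Pdyn decreased by 38.6%. Among all 11940 differences, sorted from the most negative, they stood at ranks 2 and 5. Against the other groups, which share the same agomelatine animals, Penk was lower by -0.58 (control), -0.76 (fluoxetine), -0.91 (imipramine) and -0.77 (tianeptine). For Pdyn the corresponding differences were -0.64, -0.84, -0.57 and -0.54. Its difference from fluoxetine was the most negative of all tested genes in that comparison.

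The remaining genes differed less between agomelatine and stress. Pnoc (0.08 ± 0.09) and Oprm1 (0.11 ± 0.07) lay higher with agomelatine, and Oprk1 (-0.15 ± 0.12), Oprd1 (-0.12 ± 0.08) and Oprl1 (-0.12 ± 0.14) lay lower. Oprd1, which encodes the delta receptor, was 8.58, 8.61 and 8.70 with agomelatine and 8.72, 8.73 and 8.79 with stress alone, so those groups did not overlap. Penk, Pdyn and Oprd1 were the 3 of 7 genes without overlap in this comparison (23.7% of all genes). Oprm1 was 8.52, 8.51 and 8.54 with agomelatine and 8.27, 8.21 and 8.30 in controls, a difference of 0.26 ± 0.07. Agomelatine also lay above fluoxetine by 0.14, imipramine by 0.12 and tianeptine by 0.20 for this gene, and these comparisons share the agomelatine animals. With each animal left out in turn the Oprm1 difference from control ran from 0.24 to 0.28, given as a description.

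Marker genes of the cells of the tissue also differed in the agomelatine animals, given here as scores: each marker's log2 level was centred on its mean across the 18 animals, and the centred levels of a list were averaged in each animal. The score of 6 granule neuron markers, out of 12 listed, was -0.34 to -0.19 in the agomelatine animals and -0.07 to 0.18 in the other 15, and all 6 lay below stress (median difference -0.24, all genes -0.02). Of these, C1ql2 and C1ql3 passed (2 of 6, where 5.76% of all genes passed as lower and 3.78% as higher), and all 6 had an unadjusted p under 0.05. All 11 measured oligodendrocyte markers passed as higher (median 0.56), with scores of 0.42 to 0.78 against -0.21 to 0.04. Of 11 markers of CA pyramidal neurons, 8 lay above stress and 4 of them passed (median 0.25), with scores of 0.06 to 0.48 against -0.24 to 0.27. The score of the GABAergic interneuron markers, of which 0 of 11 passed, ran from -0.03 to 0.20 against -0.25 to 0.26. Choroid plexus markers stood out in 1 agomelatine animal, with a score of 3.54 in agomelatine 1 and 0.75 in stress 1. All 11 astrocyte markers lay below stress (median -0.18) and 2 of them passed. Of 12 vascular markers 4 lay below stress and 1 passed, and none passed among 9 choroid plexus, 10 meningeal, 11 microglial and 9 thalamic or striatal markers. Array values have no true zero, so no marker can be said to be absent. The part of these cell types in the levels of Penk and Pdyn was not tested. Without agomelatine 1 the differences from stress were -0.69 for Penk and -0.72 for Pdyn, and without agomelatine 1 and stress 1 they were -0.64 and -0.59.

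**Figure D2:**
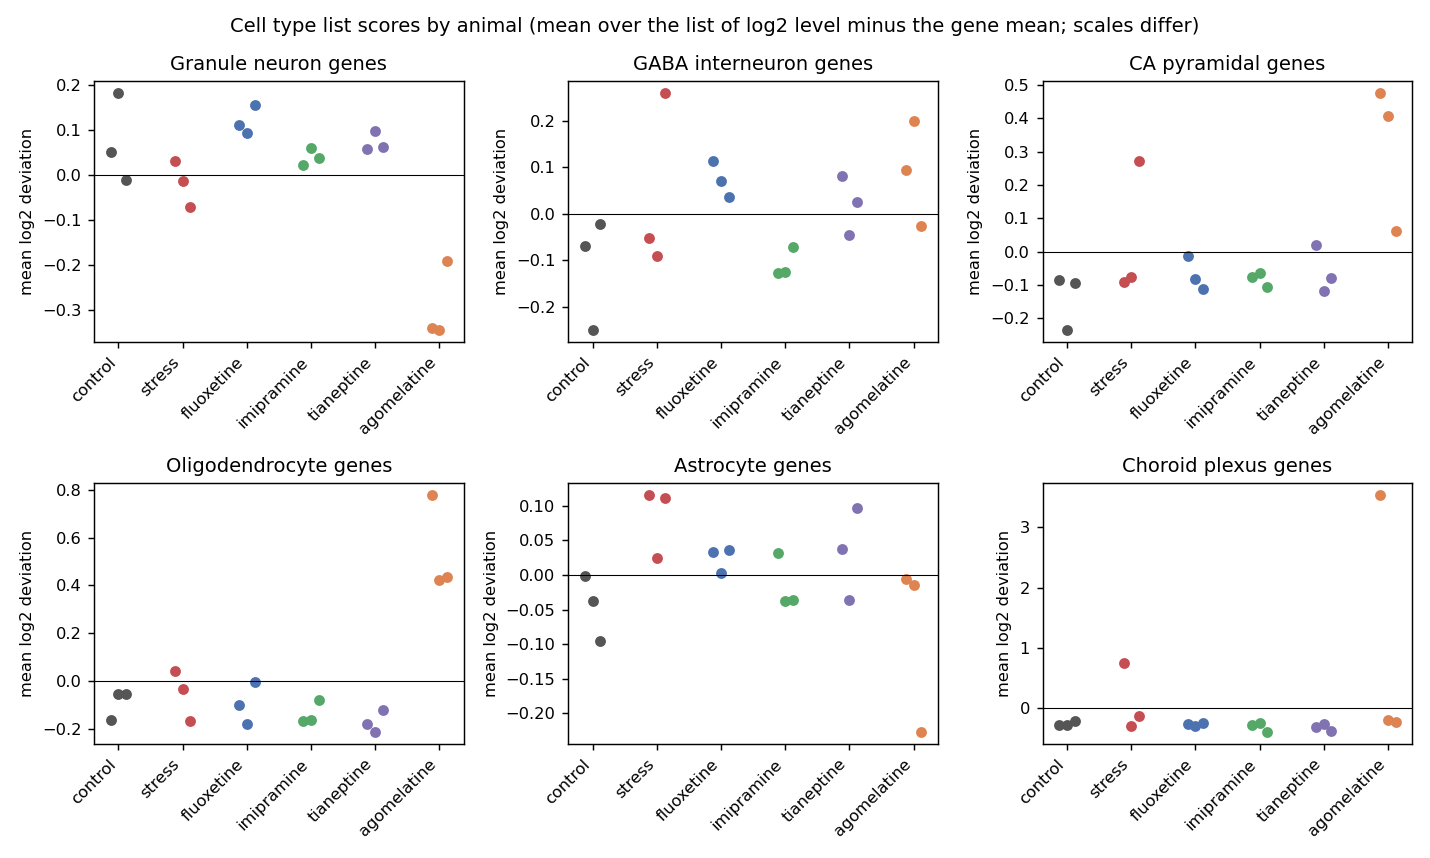
Scores of marker lists for granule neurons, GABAergic interneurons, CA pyramidal neurons, oligodendrocytes, astrocytes and choroid plexus, in each animal by group (horizontal axis). The vertical axis is the mean log2 deviation from each marker's mean over the 18 animals. Each point is 1 animal, and the line marks 0. The agomelatine animals lie lowest in the granule neuron panel (-0.34 to -0.19) and highest in the oligodendrocyte panel (0.42 to 0.78), and overlap with other animals in the interneuron and CA panels.

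The repeat arrays of the controls show how far a level moved between arrays of the same animal. Penk was lower on all 3 repeat arrays, by -0.06, -0.13 and -0.13, and Pdyn by -0.36, -0.25 and -0.07. Their means were -0.11 and -0.23. Repeat arrays were made of control animals alone. For the other genes the repeat array could lie on either side of the first, with the widest gap at 0.46 in Oprk1. Differences between groups of about 0.1 to 0.3 in Pdyn or Oprk1 were within the size of these gaps, but the measures are unlike. A gap lies between single arrays of 1 animal, while a group difference lies between means of 3 animals. For Pdyn the 3 gaps also had the same direction.

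Outside the agomelatine group, no opioid gene passed in any of the 10 comparisons among control, stress, fluoxetine, imipramine and tianeptine. The 70 differences (7 genes in 10 comparisons) ran from -0.16 to 0.32, with standard errors of 0.0726 to 0.139. limma called 0 of them (0% of all genes in 9 of the comparisons and 0.0168%, or 2 genes, in imipramine against control). At an unadjusted p under 0.05 there were 4 of 70 (5.71%, with 6.21% over all genes and these comparisons), and 10 of 70 had groups that did not overlap (14% over all genes). Both shares were near or under their background. limma's F test among these 5 groups called 0 of the 7 genes (0% of all genes), with 0 also at an unadjusted p under 0.05 (6.56% of all genes). The smallest unadjusted p of the F test was 0.11, for Pdyn, and the adjusted values lay between 0.784 and 0.986.

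**Figure D3:**
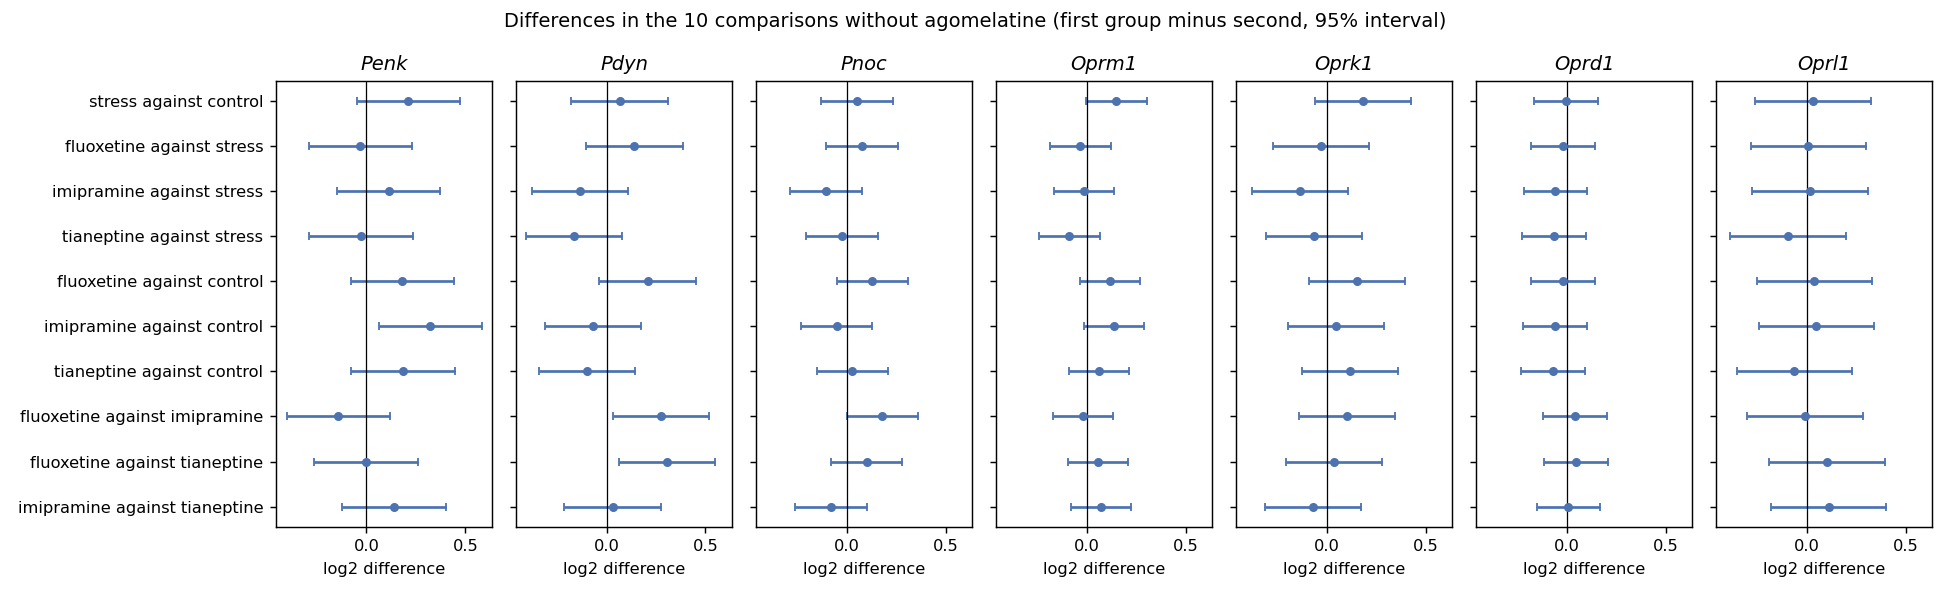
Difference of log2 level (horizontal axis, first group minus second) for each of the 7 opioid genes in the 10 comparisons without agomelatine, with points for the differences and bars for their 95% intervals from limma. Nearly all intervals take in 0; the exceptions are Penk in imipramine against control, Pdyn in fluoxetine against imipramine and against tianeptine, and Pnoc in fluoxetine against imipramine, and none of these passed after adjustment.

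Penk, the enkephalin precursor, was ordered imipramine, stress, tianeptine, fluoxetine, control and agomelatine from the highest to the lowest mean. Its levels were 10.94, 10.85 and 10.70 with imipramine, 10.90, 10.78 and 10.38 with tianeptine, and 10.69, 10.79 and 10.58 with fluoxetine. The imipramine animals lay above all 3 controls, and the groups in between overlapped with their neighbours. The difference of imipramine from control was 0.32 ± 0.12, with a 95% interval of 0.06 to 0.59 and a limma adjusted p of 0.549 (unadjusted 0.0181). Stress alone differed from control by 0.21 ± 0.12 (interval -0.05 to 0.47, limma adjusted p = 0.826), and the highest control animal, at 10.59, lay just above the lowest stressed one, at 10.56. Against stress alone, Penk differed by -0.03 with fluoxetine, 0.11 with imipramine and -0.03 with tianeptine, each with overlapping groups.

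Pdyn, the dynorphin precursor, was highest with fluoxetine (10.39 ± 0.04), followed by stress (10.25 ± 0.26), control (10.18 ± 0.15), imipramine (10.12 ± 0.16), tianeptine (10.09 ± 0.11) and agomelatine (9.55 ± 0.19). The fluoxetine animals were at 10.44, 10.39 and 10.35, the imipramine animals at 10.30, 10.03 and 10.02, and the tianeptine animals at 10.20, 10.08 and 9.99. All 3 fluoxetine animals thus lay above every control, imipramine and tianeptine animal, while stress overlapped with all of them. The separation from control holds for the mean of the 2 arrays of each control animal. On the first arrays alone the controls were at 10.402, 10.434 and 10.055. There they overlapped with fluoxetine, and their mean lay above that of stress. Fluoxetine exceeded imipramine by 0.28 ± 0.12 (interval 0.03 to 0.52, limma adjusted p = 0.428) and tianeptine by 0.31 ± 0.12 (0.06 to 0.55, limma adjusted p = 0.998). With arrays weighted by their quality the difference of fluoxetine from imipramine was 0.32, with a limma adjusted p of 0.0483. That setting called 370 genes in the comparison and the equal weighting called 0. Some marker scores also lay apart in these groups. Interneuron scores were 0.04 to 0.11 with fluoxetine and -0.13 to -0.07 with imipramine. Granule neuron scores were 0.09 to 0.16 with fluoxetine and 0.02 to 0.06 with imipramine. Thalamic or striatal scores were 0.02 to 0.07 with fluoxetine and -0.07 to 0.005 with imipramine. The scores of the other cell type lists overlapped. The part of these cell types in the Pdyn difference was not tested. Against stress, Pdyn differed by 0.14 with fluoxetine, -0.13 with imipramine and -0.16 with tianeptine, each with an interval that takes in 0.

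Pnoc, the nociceptin precursor, kept within 8.15 and 8.54 in all 18 animals. Fluoxetine and agomelatine had the highest means (both 8.40), then stress (8.32), tianeptine (8.30), control (8.27) and imipramine (8.22). Its levels were 8.45, 8.44 and 8.30 with fluoxetine and 8.22, 8.28 and 8.16 with imipramine. These groups did not overlap, with a difference of 0.18 ± 0.09 (limma adjusted p = 0.483, unadjusted 0.0497), and no other tested pair of groups was free of overlap for this gene.

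**Figure D4:**
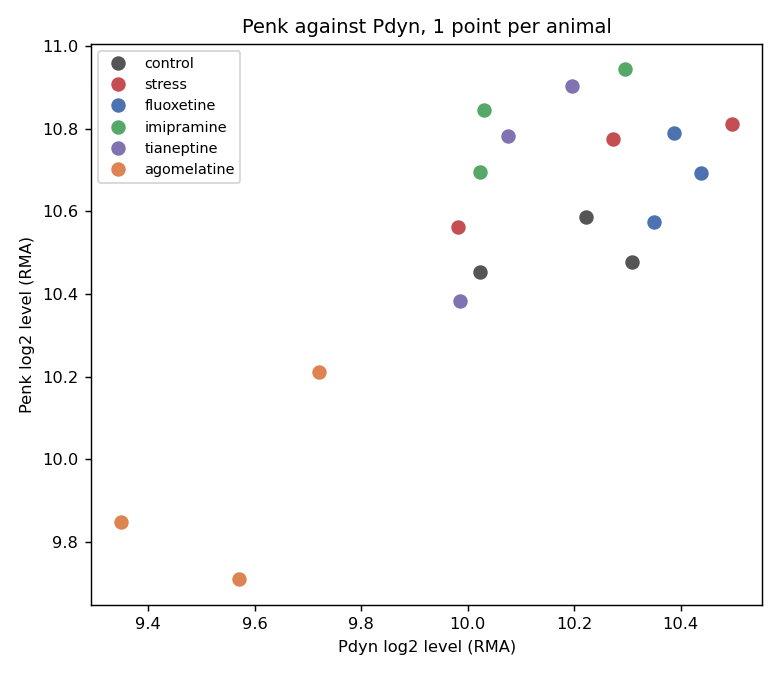
Penk log2 level (vertical axis) against Pdyn log2 level (horizontal axis) in the 18 animals, 1 point per animal and 1 colour per group. The agomelatine animals form the lower left of the plot, with Penk at 9.71 to 10.21 and Pdyn at 9.35 to 9.72, and the other 15 animals overlap with each other.

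Among the receptors, Oprm1, which encodes the mu receptor, was lowest in controls. Its levels were 8.27, 8.21 and 8.30 in controls and 8.35, 8.31 and 8.57 with stress alone. Fluoxetine animals were at 8.36, 8.31 and 8.48, imipramine animals at 8.36, 8.43 and 8.41, and tianeptine animals at 8.27, 8.38 and 8.32. Stress, fluoxetine and imipramine each lay above all 3 controls, and tianeptine overlapped with them. The differences from control were 0.15 ± 0.07 for stress (interval -0.0017 to 0.30, limma adjusted p = 0.822), 0.12 for fluoxetine, 0.14 for imipramine and 0.06 for tianeptine, and none passed. These differences share the control animals. The value for stress depended on 1 animal: without stress 3 it was 0.07, and with all array medians set equal it was 0.09. Stress 3 had the highest Oprm1 level of all 18 animals, and also the highest score of GABAergic interneuron markers (0.26, against -0.05 and -0.09 in the other stressed animals) among all 18. The same animal had the highest median over the tested genes (9.13), the highest scores of the thalamic or striatal markers (0.11), of the opioid signalling genes (0.10) and of the other neuropeptides (0.14), and a CA pyramidal score of 0.27 at rank 3. The part of these in its Oprm1 level was not tested.

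Tianeptine, the drug of the series that binds the mu receptor, was compared with stress alone for all 7 genes. Oprm1 differed by -0.09 ± 0.07 (interval -0.24 to 0.06, limma adjusted p = 0.943), and over the other settings the value ran from -0.14 to -0.01. All 7 genes lay below 0 in this comparison, from -0.02 (Pnoc) to -0.16 (Pdyn). Their median was -0.07 against -0.01 over all genes, and each gene's groups overlapped (11.4% of all genes did not). The shared direction depended on 1 animal: without stress 3, Pnoc, Oprk1 and Oprl1 lay above 0. The other stressed animals were at 7.18 and 7.02 for Oprk1 and at 8.91 and 8.42 for Oprl1. The tianeptine means of these genes were 7.13 and 8.72. Penk, Pdyn, Oprm1 and Oprd1 stayed below 0 without stress 3. At the same dose, Oprm1 with tianeptine was lower than with imipramine by 0.07 and than with fluoxetine by 0.06, and the intervals of imipramine minus tianeptine (-0.08 to 0.23) and fluoxetine minus tianeptine (-0.10 to 0.21) leave room for differences of either sign.

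Oprk1, the kappa receptor gene and receptor of the dynorphins, lay closest to the low-signal filter, which was set at 6.62. It was 7.09, 6.82 and 7.12 in controls, 7.18, 7.02 and 7.38 with stress, 7.22, 7.14 and 7.13 with fluoxetine, 7.11, 7.03 and 7.04 with imipramine, 7.17, 7.17 and 7.04 with tianeptine, and 7.11, 7.26 and 6.75 with agomelatine. Stress exceeded control by 0.18 ± 0.12 with overlapping groups. Fluoxetine animals lay above all controls and all imipramine animals, at differences of 0.15 and 0.10 that did not pass (limma adjusted p = 0.993 and 0.818). On the first control arrays alone, at 7.182, 7.048 and 6.982, controls overlapped with fluoxetine.

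Oprd1, the delta receptor gene, and Oprl1, the nociceptin receptor gene, showed no tested pair of groups without overlap. Oprd1 group means ran from 8.63 with agomelatine to 8.75 in controls, and the stressed animals differed from controls by -0.0035 ± 0.077 (interval -0.16 to 0.16). Oprl1 had the widest spread of the 7 genes within the stress group, at 8.91, 8.42 and 9.12, and was 8.72, 8.46 and 8.98 with tianeptine. Its means ran from 8.70 with agomelatine to 8.83 with imipramine, and its intervals, of about 0.29 on either side, are the widest of the 7 genes.

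By comparison, the counts of opioid genes without overlap were 1 of 7 for stress against control (13.4% of all genes), 0 for fluoxetine against stress (11.3%), and 0 for imipramine against stress (19%). Against control they were 3 for fluoxetine (11.7%), 2 for imipramine (18.5%) and 0 for tianeptine (10.7%). Between the drugs at 10 mg/kg they were 3 for fluoxetine against imipramine (19.5%), 1 for fluoxetine against tianeptine (10.1%) and 0 for imipramine against tianeptine (14.9%). Comparisons with fluoxetine share its 3 animals. Comparisons with control use the averaged arrays of each control animal. On first control arrays alone, fluoxetine overlapped with control for Pdyn and Oprk1.

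Covariation among the genes was examined over the 15 animals outside agomelatine, in 21 pairs. Penk and Pdyn had a Pearson r of 0.33 (permutation p = 0.223, adjusted 0.646) and a Spearman rho of 0.35 (permutation p = 0.205, adjusted 0.949). Without the 2 animals farthest from the median of Penk r was 0.16, and after the group means were taken out it was 0.66, given as a description. Within the groups, the animal numbered 3 had the lowest Pdyn level in all 6 groups and the lowest Penk level in 5 of 6. Over all 18 animals r was 0.82, a value that the choice of Penk and Pdyn for their agomelatine levels raises. Oprm1 and Oprk1 were the 1 pair with an unadjusted p under 0.05 (r = 0.62, permutation p = 0.0175, adjusted 0.367; rho = 0.32, permutation p = 0.241, adjusted 0.949). Without the 2 animals farthest from the median of Oprm1 that r was -0.09, so it rests on those animals. Dynorphin precursor and kappa receptor, a ligand and its receptor, had r = -0.04 (permutation p = 0.901, adjusted 0.917), and nociceptin precursor and its receptor had r = 0.21 (permutation p = 0.452, adjusted 0.792). Of the 21 correlations, 13 were above 0 and 0 passed after adjustment.

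The genes whose levels ran most like those of Penk over the 18 animals were Alkbh4 (r = 0.88), Ttyh1 (0.88), Sprn (0.86), Stk32c (0.86) and Bcdin3d (0.85). Over the 15 animals outside agomelatine they were Or4z4 (0.86), Bclaf1 (0.82), Gja6 (0.78), Sucnr1 (0.78) and Tmem215 (0.75). For Pdyn they were Efnb3, Fdx1, Psd2, Prelid3a and Lratd1 over 18 animals (0.87 each), and Flrt3 (0.81), Rasgrp3 (0.78), Kif18b (0.77), Tnfsf15 (0.77) and Nr0b1 (0.76) over 15. No gene stood in both lists of 5 for Penk or for Pdyn. Pdyn itself had rank 21 in likeness to Penk over 18 animals and rank 1281 over 15. These are the highest of 11940 correlations and describe these animals.

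Other genes of opioid biology were followed in lists: peptide processing, peptide degradation, receptor signalling, transcriptional regulators of the precursors, and other neuropeptides. In the 10 comparisons without agomelatine, limma called 0 of 65 measured genes, Pomc included (35 of 650 differences, or 5.38%, had an unadjusted p under 0.05, beside 6.21% over all genes). Among processing genes the smallest unadjusted p was that of Pcsk2, prohormone convertase 2, at 0.22 ± 0.07 in fluoxetine against control (unadjusted 0.00701, limma adjusted p = 0.899). Pcsk1n, whose product inhibits prohormone convertase 1, had 0.28 ± 0.10 in tianeptine against stress (limma adjusted p = 0.94). Gprasp1, whose product sorts delta receptors to lysosomes, had 0.29 ± 0.08 in imipramine against control (limma adjusted p = 0.418). Creb1, which encodes a transcription factor that binds cyclic AMP response elements, had 0.25 ± 0.08 in imipramine against tianeptine (limma adjusted p = 0.838). Kcnip3 encodes DREAM, a calcium-dependent repressor of Pdyn, and had 0.41 ± 0.17 in fluoxetine against control (limma adjusted p = 0.993).

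In agomelatine against stress, 7 of these 65 genes passed, a share near the 9.54% over all genes. The peptidase neprilysin (Mme), which degrades enkephalins, rose by 0.52 ± 0.14 (limma adjusted p = 0.0257), from 7.45, 7.27 and 7.69 with stress to 7.77, 7.78 and 8.42, and the groups did not overlap. The peptidase genes Ece2 (-0.23, limma adjusted p = 0.0195) and Thop1 (-0.27, limma adjusted p = 0.0196) fell, which makes 1 higher and 2 lower of 8 degradation genes. Of 25 signalling genes, Gnai3, an inhibitory G protein subunit, rose (0.24, limma adjusted p = 0.042), and the adenylyl cyclase gene Adcy1 (-0.36, limma adjusted p = 0.00236) and the arrestin gene Arrb2 (-0.25, limma adjusted p = 0.0484) fell. Chgb, a dense-core vesicle granin, was the 1 of 15 other neuropeptide and granin genes to pass, at 0.37 (limma adjusted p = 0.00785). Adcy1 and Chgb passed in all 32 other settings. Mme was lost in 3 of 31, at 0.30 without agomelatine 3, Ece2 in 4 of 32, Thop1 in 5, Gnai3 in 16 and Arrb2 in 25. None of 6 processing genes, 10 regulators or the precursor Pomc passed, and Kcnip3 had -0.47 ± 0.17 (limma adjusted p = 0.0819). The medians of the lists ran from -0.09 (signalling) to 0.03 (processing), beside -0.02 over all genes. The part of the cell type differences of the agomelatine animals in the levels of these genes was not tested.

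**Figure D5:**
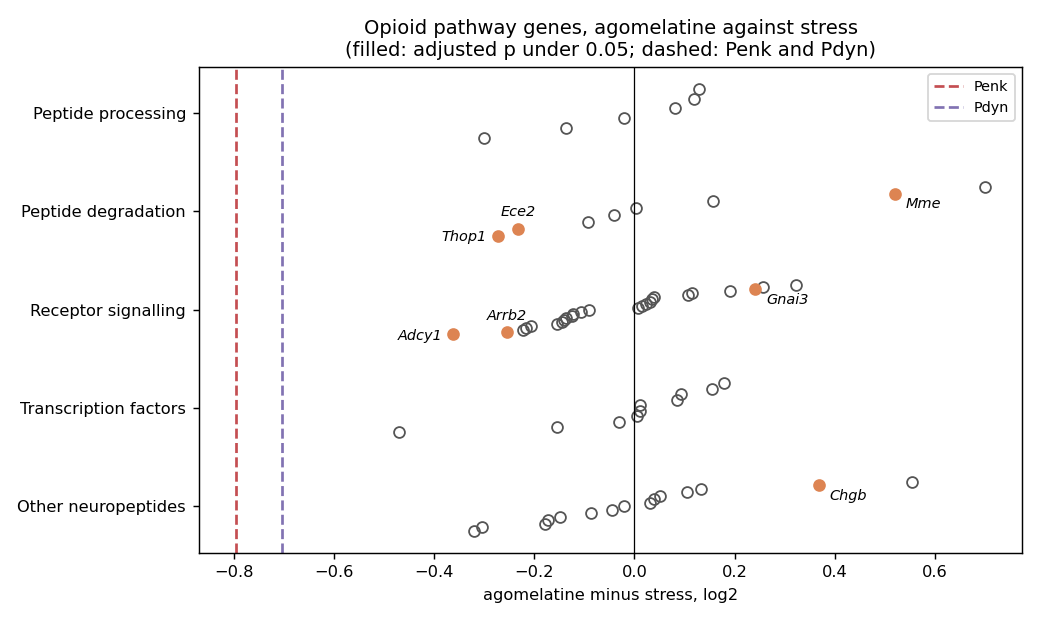
Difference of log2 level between agomelatine and stress (horizontal axis) for the measured genes of the opioid pathway lists (rows), with filled points for genes past an adjusted p of 0.05, open points for the others, and dashed lines at the Penk (-0.80) and Pdyn (-0.70) differences. Named points are the genes that passed: Mme, Gnai3 and Chgb to the right of 0, and Ece2, Thop1, Adcy1 and Arrb2 to the left.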

How the data were processed

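Total RNA of the dentate gyrus of 18 rats was measured on 21 arrays. Per the submitters' processing notes, the authors ran RMA (Affymetrix Expression Console 1.2), and the deposited values are its log2 levels of probe sets. RMA normalizes arrays to a common distribution, so a shift shared by all genes cannot be seen. Platform annotation gave 1 symbol to 15310 of 29214 probe sets, several to 323 and none to 13581 here, and 15279 matched RefSeq by gene number.

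Each control animal entered as the mean of its 2 arrays. Probe sets with 1 symbol and a mean at or above the 25th percentile of all probe sets (6.62) were kept, with the highest mean per gene, which left 11940 of 14506 genes. A linear model with group means was fitted over the 18 animals in limma 3.58.1 under R 4.3.3 (12 residual degrees of freedom, eBayes with trend), with Benjamini-Hochberg adjustment over all genes in each of 15 comparisons, and an F test among the 5 groups without agomelatine. Standard errors pool the spread of all groups. Correlations used 100000 permutations. The code was tested on simulated data.

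The members, lists and rules were chosen with earlier results of these data known. All 7 members are named. For each pathway list, up to 4 genes with the smallest unadjusted p outside agomelatine were taken, and part of them is printed. The 7 pathway genes and the markers named in agomelatine against stress were chosen after their values were seen. Listed pathway genes not analysed here are Pcsk1, Fosb, Tac1, Crh and Nts. Alternatives covered the filter, the control arrays, normalization, array weights, variance model, a choroid plexus covariate, the replicate number as a block and each animal left out. Array run dates are not given in the sources used here.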

Additional observations from a re-analysis of the deposited data

How the results depend on the processing

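Over 33 other settings, no difference of an opioid gene followed across them changed direction. Those followed were a part of all member differences, most of them with agomelatine. Some differences not followed did change direction. Pdyn lay lower with stress than in control when first control arrays alone were used. Without stress 3, Pnoc, Oprk1 and Oprl1 lay higher with tianeptine than with stress. In the 10 comparisons without agomelatine, 0 members passed in all settings but 1: with array weights, 1 member, Pdyn, passed in fluoxetine against imipramine (0.32, limma adjusted p = 0.0483). The count of member pairs that passed was 0 over the 15 animals outside agomelatine. Over all 18 animals no count is given, since the agomelatine animals used for choosing the members enter there. In agomelatine against stress, used for choosing the members and not tested for them, the difference ran from -0.94 to -0.64 for Penk and from -0.84 to -0.58 for Pdyn over 32 settings. The count over all genes there was 1139 and ran from 528 with array weights to 1454 without fluoxetine 3 (550 without stress 2, 642 without stress 3 and 681 when all 21 arrays entered with a random block for the animal). Over all genes, the counts without agomelatine reached 105 for stress, 78 for fluoxetine, 174 for imipramine and 59 for tianeptine against control with repeat control arrays only, and 370 for fluoxetine against imipramine, 88 for imipramine against control, 17 for imipramine against stress and 4 for fluoxetine against stress with array weights, where the fit above gave 2 for imipramine against control and 0 otherwise.

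The replicate numbers are shared across groups, but over all genes same-numbered animals did not deviate together: over 45 such pairs the correlation ran from -0.30 to 0.29, with 10 over 0.1. Over 90 pairs of different number it ran from -0.34 to 0.30, with 23 over 0.1. Pdyn had its lowest level at number 3 in all 6 groups and Penk in 5 of 6, which was picked out after seeing the data. Over all genes, 27 of 11940 (0.226%) had the lowest level at 1 number in all 6 groups. With the replicate block the SE of a Pdyn difference was 0.0841 in place of 0.116, and its adjusted p in fluoxetine against imipramine was 0.41 by limma. With that block 0 members passed in each of the 10 comparisons without agomelatine, and 993 genes passed in agomelatine against stress in place of 1139. The number of animals, 3 a group, limits the precision, and intervals of member differences reach 0.15 to 0.29 on either side. The filter on named probe sets, which leaves out Oprk1, and the setting without both agomelatine 1 and stress 1 were chosen after seeing the data.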

Other observations

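Among other neuropeptides of dentate interneurons, Npy was 10.85 ± 0.24 with fluoxetine and 10.31 ± 0.03 with imipramine (SD, n = 3), a difference of 0.54 ± 0.12 (SE) that did not pass (limma adjusted p = 0.354) although the groups did not overlap. The score of the GABAergic interneuron markers, a list that holds Npy and Sst, was 0.04 to 0.11 with fluoxetine and -0.13 to -0.07 with imipramine, with 9 of 11 markers above 0 and a median difference of 0.17, and its part in the Npy difference was not tested. Sst, which encodes somatostatin, exceeded control by 0.38 ± 0.13 with fluoxetine (limma adjusted p = 0.948), again without overlap. Bdnf, the growth factor stored in the mossy fibres beside dynorphin, exceeded control by 0.30 ± 0.12 with imipramine (limma adjusted p = 0.562).

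Animal stress 3 had the highest level of all 18 animals in 3 of the 4 receptor genes, at 8.57 for Oprm1, 7.38 for Oprk1 and 9.12 for Oprl1, and stood at rank 2 for Oprd1. For the precursors it stood at rank 6 of 18 for Pnoc, 12 for Penk and 15 for Pdyn. The same animal had the highest median over the tested genes (9.13) and the highest score of GABAergic interneuron markers (0.26). No share of all genes highest in this animal is given, and the part of these in its receptor levels was not tested.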
